A study of Mus musculus with 9 samples.

Results

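The proteasome subunits and the enzymes that attach and remove ubiquitin were compared between lymphedematous, sham and normal tail skin of mice. Members were chosen by gene symbol in the array's annotation (Psma to Psme and Psmg followed by a number, Ube2, Uba and Usp). The rule itself uses no measured values, but it was written with earlier results of these data known. The rule found 111 genes on 299 features among 10554 named genes on 42624 features, a feature being 1 spotted cDNA clone. Of these, 105 genes on 247 features had a value on every array and were tested among 8644 genes. Ube2d-ps, Usp11, Usp13, Usp27x, Usp29 and Usp30 lacked a complete feature and were not tested, and 10 features that the annotation gives to a member and another gene were left out.

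The animals were female hairless SKH-1 mice. Mice whose tail volumes were followed were 3 weeks old, and no age is given for those of the arrays. In lymphedema mice the tail skin was incised around its circumference and the main lymphatic trunks, stained with methylene blue, were cauterized. Sham mice had the incision and the dye without cautery, and normal mice had no surgery. Tail skin was taken on day 14 from 9 mice per state in 3 pools of 3 mice, so that n = 3 pools per state, and each pool was hybridized once with RNA of whole mouse embryos as the reference. The tissue was whole skin, so a changed number of cells of a type and a changed amount of RNA per cell cannot be told apart.

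The proteasome is the barrel-shaped protease that degrades proteins tagged with ubiquitin. Its core particle holds rings of alpha and beta subunits, and the regulatory particle on its ends binds, unfolds and admits the substrate. Interferons replace the catalytic beta subunits Psmb5, Psmb6 and Psmb7 by Psmb8, Psmb9 and Psmb10, which gives the immunoproteasome, and induce Psme1 and Psme2, which form an activator cap. The peptides it releases load MHC class I molecules. Ubiquitin reaches its substrates through an activating E1, a conjugating E2 and a ligase E3, and deubiquitinases of the Usp family take it off.

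By the sample labels the tail skin was in Cy5 and the embryo in Cy3, whereas the methods have the dyes reversed. In the deposited values, 24 or 25 of 24 or 25 genes typical of embryos lay above the median of each array, with array medians of 2.57 to 3.35, and 12 to 14 of 15 genes of adult skin lay below it, with array medians between −1.78 and −0.94. On this basis the ratio was taken to be that of embryo to tail, against the dyes given in the labels, and the sign of each value was reversed. All values below are log2 ratios of tail skin to embryo after centering each array on its median, and positive values mean more RNA in tail skin. A level therefore sets a gene against the embryo, and levels of different genes are not compared. The median over 7 epidermal markers was 1.20 to 2.35 on the arrays. This too is a level against the embryo, and it does not measure the share of epidermis in a sample. Values were missing for 1.34% to 12.6% of features per array. Lymphedema array 1 and the 3 normal arrays were the only ones with a value in 186 features, against 45 for the next highest of 126 ways to divide the arrays 4 against 5, and these 4 arrays are called an array set below. The median of the arrays also moved along the feature number. Lymphedema minus normal skin had a median over all features of −0.11 in features 1 to 4000 and of 0.54 in features 40001 to 43188. A second version, here called local centering, took out a running median along the feature number and was chosen after seeing the data. It is given beside several results that it moved, and it turned the sign of 12 of the 105 tested members in lymphedema against normal skin.

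A small part of the family rose in lymphedema against normal skin, namely the immunoproteasome subunits Psmb9 and Psmb10, the E2 variant Ube2v1 and the deubiquitinase Usp33. Between lymphedema and normal skin, 4 of the 105 members were called higher and 0 lower by limma, at an adjusted p under 0.05 over all genes. Of all 8644 genes, 3.44% were called in this comparison, 2.83% higher and 0.602% lower, so the members' count was close to the background. At an unadjusted p under 0.05 there were 13 members (12.4%, against 20.5% of all genes), 11 higher and 2 lower. The median log2 fold change over the 105 members was 0.16, and 70.5% were positive, beside 0.10 and 61.9% over all genes. After quantile normalization the median of all genes was −0.02 and that of the members 0.05. The 3 lymphedema arrays all lay above the 3 normal arrays in 24 members (22.9%, against 23.6% of all genes), and all below in 7 (6.67%, against 10.2%).

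**Figure D1:**
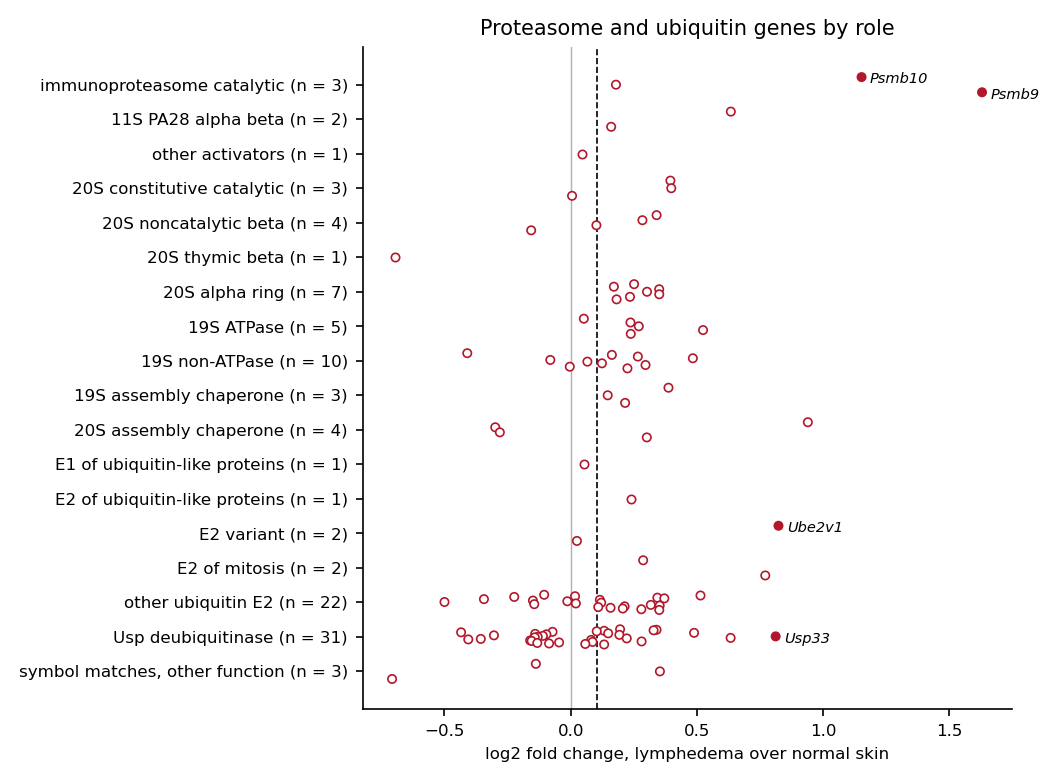
The log2 fold change of lymphedema over normal skin is on the horizontal axis, with 1 point per tested member, grouped by role on the vertical axis. Filled points with names passed at an adjusted p under 0.05 in limma, and the dashed line marks the median of all genes at 0.10. Psmb9 and Psmb10 lie farthest to the right at 1.63 and 1.15. The 29 constitutive core and regulatory subunits range from −0.41 to 0.52, with a median of 0.24.

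Of the 5 immunoproteasome genes, Psmb9 and Psmb10 rose in lymphedema against normal skin and Psme1, Psme2 and Psmb8 did not pass. Psmb9, which takes the place of Psmb6, had 1.85, 1.29 and 2.81 on the lymphedema arrays, 0.38, 0.29 and 1.35 on the sham arrays, and 0.46, 0.32 and 0.28 on the normal arrays. Each lymphedema array lay above each normal array, and sham array 3 overlapped the lymphedema range. The log2 fold change was 1.63 (standard error, SE, 0.364, with a limma adjusted p = 0.0371), or 3.09-fold. Psmb10, which takes the place of Psmb7, had 1.10, 1.77 and 1.30 in lymphedema, 0.79, 0.41 and 0.41 in sham, and 0.15, 0.13 and 0.44 in normal skin. The lymphedema arrays lay above all sham and all normal arrays. The log2 fold change against normal skin was 1.15 (SE 0.211, limma adjusted p = 0.0259), or 2.22-fold. Both values rest on 1 clone per gene with values on all arrays. A second clone of Psmb9, with values on 5 arrays, had a difference of −0.26, between 2 lymphedema and 2 normal arrays. A clone that the annotation gives to both Tap1 and Psmb9, with values on 7 arrays, had −0.82. That difference rests on 1 lymphedema array against 3 normal arrays.

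Psme1, the alpha subunit of the activator cap, had 1.23, 1.33 and 1.26 in lymphedema, 1.16, 0.92 and 0.78 in sham, and 0.47, 0.64 and 0.80 in normal skin. The lymphedema arrays again lay above all others. Its log2 fold change of 0.63 against normal skin did not pass (SE 0.171, limma adjusted p = 0.0707), though it passed in 5 of 19 alternatives, and its 3 clones had 0.20, 0.73 and 0.98. Psme2, the beta subunit of the cap, had 0.33, 0.31 and 0.46 in lymphedema, 0.52, 0.34 and 0.01 in sham, and 0.45, 0.04 and 0.13 in normal skin. These ranges overlapped, and the log2 fold change was 0.16 (SE 0.189, limma adjusted p = 0.677). Local centering brought it to 0.39 with an adjusted p = 0.219 from limma, and all lymphedema arrays of Psme2 then lay above the normal arrays.

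Psmb8, which takes the place of Psmb5, had 0.60, 0.45 and 0.72 in lymphedema, 0.71, 0.34 and 0.24 in sham, and 0.42, 0.33 and 0.48 in normal skin, averaged over its 5 complete clones. The log2 fold change was 0.18 (SE 0.178, limma adjusted p = 0.610). It was 0.65 (adjusted p = 0.106 from limma) when features with values on 2 of 3 arrays per state were taken, which brings in all 8 clones, and 0.28 (adjusted p = 0.208) with local centering, where the lymphedema arrays lay above the normal arrays. With the first clone alone it was −0.25. The average joins clones that went apart. Of the 8 Psmb8 clones, 5 had a lymphedema minus normal difference above 0.5 and 3 had one below 0. The 5 were feature 25688 at 2.05, feature 6733 at 1.48, feature 26538 at 1.19, feature 30152 at 0.92 and feature 30151 at 0.60. The 3 were feature 26911 at −0.05, feature 5836 at −0.25 and feature 15738 at −0.92. Features 25688 and 26911, the one at 2.05 and the other at −0.05, carry the same accession in the annotation. In a fit of single features, by which 2.94% of 30702 features were called in lymphedema against normal skin, feature 26538 passed (SE 0.270, limma adjusted p = 0.0294). Its lymphedema arrays had a mean of 1.89 (SD 0.402), its sham arrays 0.97 (SD 0.367) and its normal arrays 0.70 (SD 0.235). Features 25688, 6733 and 30151 had no value on 1 normal array and entered only the fit on 2 of 3 arrays per state. Which of the clones carry Psmb8 sequence was not tested.

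**Figure D2:**
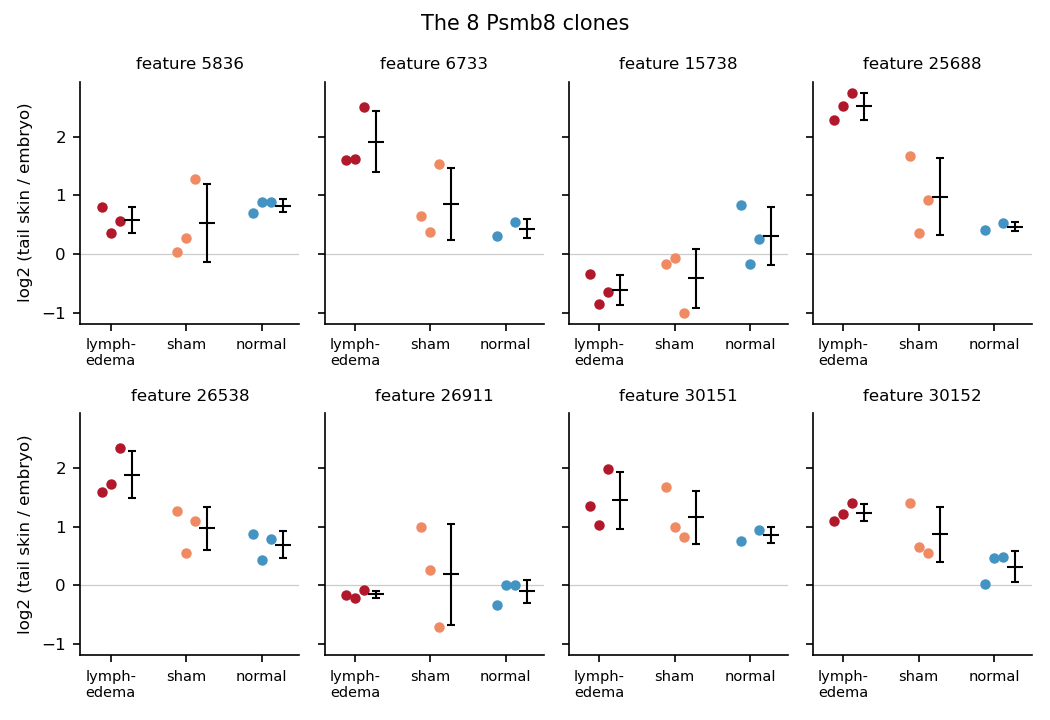
Each panel shows 1 of the 8 Psmb8 clones, with the log2 ratio of tail skin to embryo on the vertical axis and 1 point per array for lymphedema, sham and normal skin. Black marks give the mean and SD of the arrays with a value. Features 6733, 25688, 26538 and 30152 have lymphedema arrays above their normal arrays, and features 5836, 15738 and 26911 do not. Feature 30151 has a lymphedema mean 0.60 above its normal mean.

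The promoters of the interferon-induced subunits are shown because 2 of the 4 called members are among these genes. They are RefSeq windows from 250 bases before to 50 bases after the annotated start, on GRCm38.p6, and 91 of the 111 members had one. Capitals mark matches, on either strand, to the core of the interferon-stimulated response element (GAAA, any 2 bases and GAAA, in 3.44% of 32851 windows of this length), the gamma-activated site (TTCNNNGAA, in 8.3%) or the CCAAT box (CCAAT, in 37.4%). Psmb9 lies on the minus strand at chr17:34187281-34187580, and its window shares 275 bases with that of the oppositely oriented Tap1, the peptide transporter. Psmb10 lies on the minus strand at chr8:105938343-105938642, Psmb8 on the plus strand at chr17:34197945-34198244, and Psme1 on the plus strand at chr14:55578244-55578543.
Psmb9: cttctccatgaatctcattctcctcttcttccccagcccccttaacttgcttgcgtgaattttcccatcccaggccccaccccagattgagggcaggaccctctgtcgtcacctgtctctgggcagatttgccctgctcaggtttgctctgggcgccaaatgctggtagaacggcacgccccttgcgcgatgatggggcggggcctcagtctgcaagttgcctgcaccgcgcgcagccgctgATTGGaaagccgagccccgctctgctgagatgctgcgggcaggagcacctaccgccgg
Psmb10: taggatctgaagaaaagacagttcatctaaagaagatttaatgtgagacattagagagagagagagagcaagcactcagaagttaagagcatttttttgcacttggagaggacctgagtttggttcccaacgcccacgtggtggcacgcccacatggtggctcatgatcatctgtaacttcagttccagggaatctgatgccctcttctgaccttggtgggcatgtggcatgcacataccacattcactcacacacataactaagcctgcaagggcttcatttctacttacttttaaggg
Psmb8: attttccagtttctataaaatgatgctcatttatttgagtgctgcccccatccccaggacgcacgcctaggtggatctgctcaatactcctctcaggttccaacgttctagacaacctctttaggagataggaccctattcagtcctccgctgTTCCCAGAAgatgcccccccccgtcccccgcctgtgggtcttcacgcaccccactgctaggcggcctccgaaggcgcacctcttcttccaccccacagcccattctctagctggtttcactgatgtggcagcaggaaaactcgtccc
Psme1: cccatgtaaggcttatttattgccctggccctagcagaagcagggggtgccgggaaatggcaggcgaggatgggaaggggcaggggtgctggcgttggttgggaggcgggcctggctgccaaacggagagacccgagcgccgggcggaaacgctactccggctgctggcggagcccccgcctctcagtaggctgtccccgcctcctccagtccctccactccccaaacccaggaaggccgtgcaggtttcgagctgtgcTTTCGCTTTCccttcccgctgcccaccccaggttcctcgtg
The Psmb9 window holds a CCAAT box at position −8, read on the strand opposite to the gene. The Psmb8 window holds a gamma-activated site at −97, and the Psme1 window an interferon-stimulated response element core at position 10 after the start, again on the opposite strand. The windows of Psmb10, Psme2, Psmb5 and Psmb6 hold none of the 3 motifs.

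None of the constitutive counterparts passed between lymphedema and normal skin. Psmb6 had 0.83, 0.72 and 0.40 in lymphedema, 0.62, 0.48 and 0.13 in sham, and 0.36, 0.29 and 0.10 in normal skin, and differed by 0.40 in lymphedema against normal skin (SE 0.192, limma adjusted p = 0.271). Psmb5 had 1.51, 1.62 and 0.92 in lymphedema, 1.35, 1.35 and 0.68 in sham, and 0.90, 0.99 and 0.97 in normal skin, and differed by 0.40 (SE 0.237, limma adjusted p = 0.379). The difference of Psmb5 was −0.006 with local centering. Psmb7 had −0.74, −0.25 and −0.18 in lymphedema, −0.05, −0.38 and −0.61 in sham, and −0.37, −0.32 and −0.49 in normal skin, and differed by 0.01 (SE 0.208, limma adjusted p = 0.991). The lymphedema arrays lay above all normal arrays for Psmb6 alone among these 3, and overlapped them with local centering, where Psmb6 differed by 0.26. Psme3, an activator subunit that interferons do not induce, differed by 0.05 on the log2 scale (SE 0.173, limma adjusted p = 0.914). Psme4, another activator, was not among the tested genes.

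Within each array, the difference between the log2 ratios of an immunoproteasome subunit and its counterpart describes unequal change, and it was not tested. For Psmb9 minus Psmb6 it was 1.02, 0.57 and 2.41 in lymphedema, −0.24, −0.19 and 1.22 in sham, and 0.11, 0.02 and 0.18 in normal skin. Lymphedema exceeded normal skin by 1.23 in this difference. For Psmb10 minus Psmb7 it was 1.84, 2.02 and 1.48 in lymphedema, 0.83, 0.79 and 1.02 in sham, and 0.52, 0.45 and 0.93 in normal skin, and lymphedema exceeded normal skin by 1.15. For Psmb8 minus Psmb5 it was −0.91, −1.17 and −0.20 in lymphedema, −0.64, −1.01 and −0.43 in sham, and −0.48, −0.66 and −0.49 in normal skin, so lymphedema stood at −0.22 relative to normal skin. With local centering these values were 1.29, 0.82 and 0.29, so the sign of the Psmb8 pair turned.

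**Figure D3:**
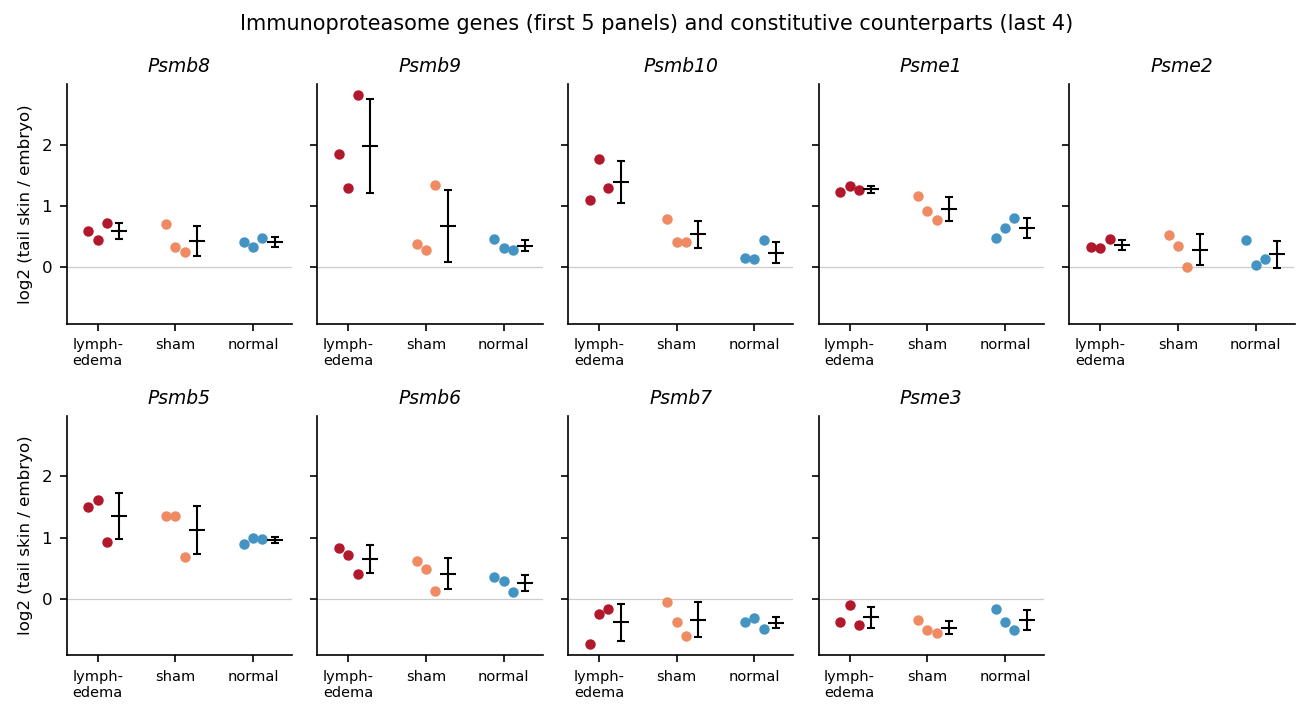
The panels show the log2 ratio of tail skin to embryo of the 5 immunoproteasome genes and of 4 constitutive counterparts, with 1 point per array for lymphedema, sham and normal skin. Black marks give the mean and SD of 3 arrays. For Psmb9, Psmb10, Psme1 and Psmb6 every lymphedema array lies above every normal array, and for Psmb8, Psme2, Psmb5, Psmb7 and Psme3 these states overlap. With local centering, not drawn, Psmb8 and Psme2 also lie wholly above normal skin and Psmb6 overlaps it.

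None of the 29 subunits of the constitutive core and regulatory particle was called, Psmb5, Psmb6 and Psmb7 included. Of the 29, 25 were positive, and their median log2 fold change in lymphedema against normal skin was 0.24 (range −0.41 to 0.52). Over all genes the median was 0.10, and 61.9% were positive. With local centering 22 of the 29 were positive and the median was 0.15, against 59.9% and 0.07 for all genes. The 7 alpha-ring subunits, which form the gate of the core, lay between 0.17 and 0.35. With local centering they lay between −0.25 and 0.31, Psma6 alone being negative. The 4 noncatalytic beta subunits had −0.16 to 0.34. The 5 ATPases, which unfold the substrate, had 0.05 to 0.52, with Psmc4 highest. The 10 non-ATPase subunits of the regulatory particle had −0.41 to 0.48, with Psmd1, a scaffold, lowest and Psmd14, the deubiquitinase of the regulatory particle, highest. Among the assembly chaperones, Psmd10 of the regulatory particle had 0.39, and it passed with local centering (log2 fold change 0.49, adjusted p = 0.0432 from limma). Psmg1, a chaperone of the core, had 0.21, −0.81 and −0.28 in lymphedema, −0.76, −0.71 and 0.04 in sham, and −1.63, −0.96 and −1.11 in normal skin. All lymphedema and all sham arrays lay above the normal arrays. Its log2 fold change against normal skin was 0.94 (SE 0.300, limma adjusted p = 0.109), and a second clone on 8 arrays had 0.27. Psmb11, the catalytic subunit of thymic epithelium, had 0.92, −0.02 and −0.38 in lymphedema, −0.52, 0.84 and 0.85 in sham, and 0.87, 0.78 and 0.97 in normal skin. Its log2 fold change of −0.70 did not pass (SE 0.385, limma adjusted p = 0.338).

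Among the enzymes of ubiquitin conjugation, 1 of 27 tested genes of the E2 family rose, against 2.83% of all genes called higher. Ube2v1, a catalytically inactive E2 variant that works with Ube2n in building the ubiquitin chains used in signaling, had 0.60, 0.78 and 0.57 in lymphedema, 0.63, 0.27 and 0.28 in sham, and −0.16, −0.17 and −0.19 in normal skin. Lymphedema and sham arrays all lay above the normal arrays and overlapped each other. The log2 fold change in lymphedema against normal skin was 0.82 (SE 0.167, limma adjusted p = 0.0288), or 1.77-fold, and a second clone on 7 arrays had 0.74. Sham against normal skin had 0.56 for Ube2v1 (SE 0.167, limma adjusted p = 0.386). Ube2n, its catalytic partner, had 0.35 and passed with local centering (0.51, adjusted p = 0.0413 from limma). Its 2 complete clones had 0.37 and 0.33, and another, on 7 arrays, had −1.22. Ube2v2, the other E2 variant, had 0.02.

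The mitotic E2 enzymes, which serve the anaphase-promoting complex, did not pass. Ube2s, which lengthens ubiquitin chains there, had −0.09, 0.18 and −0.26 in lymphedema, −0.34, −0.77 and −0.36 in sham, and −0.62, −0.75 and −1.12 in normal skin. Each lymphedema array lay above every sham and every normal array. Its log2 fold change against normal skin was 0.77 (SE 0.205, limma adjusted p = 0.0676), and its 3 clones had 0.55, 0.68 and 1.09. Ube2c, which starts the chains, had 0.29 (SE 0.226, limma adjusted p = 0.508), with clones of −0.13 and 0.70. With local centering the gene had 0.48 and did not pass (adjusted p = 0.114 from limma), while its clone at feature 13153 passed in the fit of single features (0.81, adjusted p = 0.0389). Of 16 cell division genes, Aurkb and Ccnb2, a mitotic kinase and a cyclin, rose by 0.75 and 0.88 on the log2 scale (adjusted p = 0.0494 and 0.0275 from limma). Of all genes, 2.83% were called higher in lymphedema against normal skin, and 4.57% with local centering. With local centering Aurkb had 0.23 and did not pass (adjusted p = 0.537), and Ccnb2 had 0.67 and did. The median of the 16 on each array was −0.76 to −0.43 in lymphedema, −1.01 to −0.86 in sham and −1.11 to −0.93 in normal skin. The part of cell division in the values of Ube2s was not tested.

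The other 22 ubiquitin E2 enzymes had a median of 0.12 and a range of −0.50 to 0.51, and none was called. The highest was Ube2b, which ubiquitylates histones and the replication clamp, and its 5 complete clones ran from 0.06 to 1.15. The lowest was Ube2h, with 0.00, −0.34 and −0.27 in lymphedema, −0.32, 0.24 and −0.05 in sham, and 0.35, 0.16 and 0.37 in normal skin. All its lymphedema arrays lay below its normal arrays, and the difference was −0.50 (SE 0.190, limma adjusted p = 0.170). Uba3, an E1 subunit that activates the ubiquitin-like protein Nedd8, was the only E1 tested and had 0.05. Ube2f, an E2 of Nedd8, had 0.24. The E1, E2 and protease of the interferon-induced modifier Isg15 (Uba7, Ube2l6 and Usp18) were not among the tested genes. Ube2cbp, named for binding Ube2c and itself described as an E3 ligase, had 0.36, −0.17 and −0.24 in lymphedema, 0.33, 0.73 and 0.58 in sham, and 0.84, 0.73 and 0.51 in normal skin. It was the lowest member, all lymphedema arrays lying below all normal arrays, at −0.71 on the log2 scale (SE 0.206, limma adjusted p = 0.0855).

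**Figure D4:**
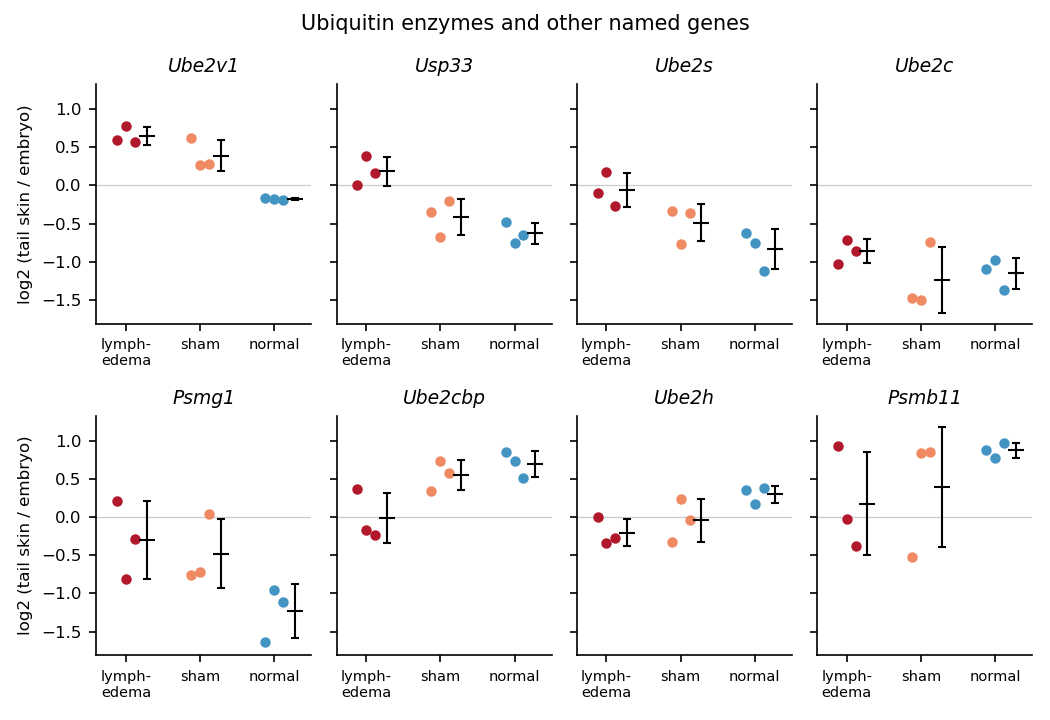
The panels show the log2 ratio of tail skin to embryo of 8 members, with 1 point per array for lymphedema, sham and normal skin, and black marks for the mean and SD of 3 arrays. Ube2v1 and Psmg1 have sham arrays above the normal arrays as well, and Ube2cbp and Ube2h have lymphedema arrays below the normal arrays.

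Of 31 Usp deubiquitinases, 1 rose and 0 fell, against 2.83% and 0.602% of all genes. Of the 31, 16 were positive and 15 negative, and the median was 0.06. Usp33, known as a partner of the von Hippel-Lindau protein, had 0.01, 0.39 and 0.17 in lymphedema, −0.35, −0.67 and −0.21 in sham, and −0.48, −0.75 and −0.65 in normal skin. The lymphedema arrays lay above all sham and all normal arrays. Its log2 fold change against normal skin was 0.81 (SE 0.187, limma adjusted p = 0.0399), or 1.76-fold, and its clones had 1.13 and 0.49. Usp36, a nucleolar deubiquitinase, had 0.63 and did not pass, and its clones differed, with 0.02 and 1.25, the higher at feature 41401. The lowest was Usp20, a close relative of Usp33, at −0.43, followed by Usp39, a splicing factor that lacks deubiquitinase activity, at −0.41.

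The 4 calls were not held by every setting. Leaving out any 1 of lymphedema arrays 1, 2 or 3 or of normal arrays 1 or 2 left 0 members called, and 0.127% to 0.845% of all genes. Without normal array 3, 1 member was called, Psmb10, and 0.787% of all genes. Over these 6 fits the log2 fold change was 1.22 to 1.98 for Psmb9, 0.96 to 1.30 for Psmb10, 0.76 to 0.86 for Ube2v1 and 0.71 to 0.90 for Usp33. Without sham array 1, 2 or 3, 5, 4 and 6 members were called, and 5.11%, 3.07% and 7.21% of all genes. Of 19 alternatives, Psmb10 was called in 13, Ube2v1 in 9, Psmb9 in 9 and Usp33 in 8, and none changed its sign. With the array set as a block, where the lymphedema side of the comparison is array 1, 0 members were called, and the log2 fold changes were 1.497 for Psmb9, 0.86 for Psmb10, 0.77 for Ube2v1 and 0.63 for Usp33. With local centering 6 members passed, the same 4 with Ube2n and Psmd10, against 6.17% of all genes. On the arrays of lymphedema and normal skin alone 7 passed, the same 4 with Psme1 and Ube2s higher and Ube2cbp lower (6.67%, against 9.74% of all genes).

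Clones of a gene often differed. Of the 105 members, 38 had 1 complete clone and 67 had more, and in 30 of these 67 the clones had opposite signs in lymphedema against normal skin. The median range between the clones of a gene was 0.44, and 0.29 with local centering. In the fit of single features, 7 of the 247 member features (2.83%) passed, against 2.94% of all features. All 7 were higher, from Psmb8, Psmb9, Psmb10, Ube2b, Ube2s, Usp33 and Usp36. The called clones of Ube2b, Ube2s and Usp36 had feature numbers of 40347, 42507 and 41401, in the range where the median of all features was highest. With local centering 9 member features (3.64%) passed, against 5.74% of all features, from Psmb8 (2 clones), Psmb9, Psmb10, Psme1, Ube2c, Ube2v1, Usp33 and Usp36. Those of Ube2b and Ube2s were not among them. The clones of Psmb5 lie at features 39134 and 40209, and the median of the 3 constitutive catalytic subunits was 0.40 with 1 median per array and 0.15 with local centering.

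**Figure D5:**
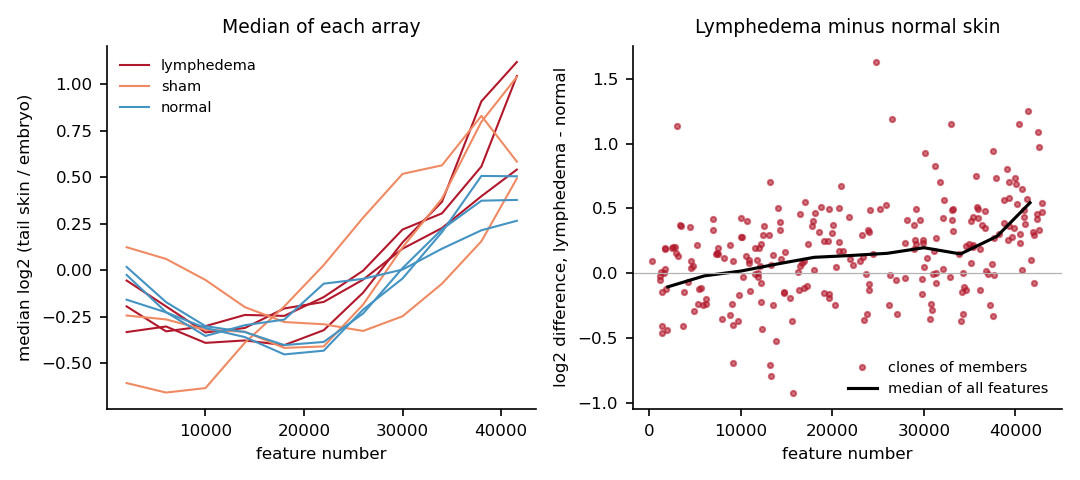
The left panel shows the median log2 ratio of tail skin to embryo in bins of the feature number, with 1 line per array colored by state, and the right panel the lymphedema minus normal difference of each complete member clone with the median of all features as a line. The line passes from −0.11 in the lowest bin to 0.54 in the highest.

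Sham against normal skin gave 0 called members, and 0% of all genes were called (2 members and 685 genes at an unadjusted p under 0.05, by limma). The members with the largest differences were Psmg1 at 0.76 (SE 0.300, limma adjusted p = 0.546), Ube2v1 at 0.56 and Ube2j2, an E2 of the endoplasmic reticulum, at 0.45 (SE 0.332, limma adjusted p = 0.789). The lowest were Psmb11 at −0.48, Ube2h at −0.34 and Usp35, a deubiquitinase linked to mitochondria, at −0.28. Psmb9 had 0.32, Psmb10 0.30, Psme1 0.31, Psme2 0.08 and Psmb8 0.02. The median of the members was 0.11, against 0.06 for all genes, and sham arrays lay above all normal arrays in 9 members (8.57%, against 9.72% of all genes), and below in 1 (0.952%, against 3.09%). The normal arrays serve in both comparisons with normal skin.

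Lymphedema against sham skin also gave 0 called members, and 0.0231% of all genes, 2 in number, were called (4 members and 643 genes at an unadjusted p under 0.05, by limma). Without sham array 3, 96 genes and 0 members were called, and the median of the members was −0.04 with 36.2% positive, in place of 0.04 with 62.9% positive. The log2 fold change of Psmb9 was 1.31 (SE 0.364, limma adjusted p = 0.470), that of Psmb10 0.86 (SE 0.211, limma adjusted p = 0.442) and that of Usp33 0.60 (SE 0.187, limma adjusted p = 0.505). The lowest were Usp39 at −0.58 (SE 0.268, limma adjusted p = 0.670), Ube2cbp at −0.56 and Ube2j2 at −0.43. The lymphedema arrays lay above all sham arrays in 5 members (4.76%, against 6.63% of all genes), and below in 0 (3.69% of all genes). With local centering these counts were 11 (10.5%, against 10.3%) and 2 (1.9%, against 5.7%). The sham arrays varied, as with Psmb9 and Ube2j2, which had 1.35 and 2.19 on sham array 3 against at most 0.38 and 1.20 on the other sham arrays.

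Genes around the proteasome were read from lists. In lymphedema against normal skin, 2.83% of all genes were called higher and 0.602% lower. Of 7 genes of peptide transport and class I loading, 3 rose in lymphedema against normal skin and none fell. B2m, the light chain of MHC class I, had a log2 fold change in this comparison of 2.43 (SE 0.234, limma adjusted p = 0.00139). H2-D1 and H2-K1, both heavy chains, rose by 1.76 and 1.07. Tap2, a subunit of the peptide transporter, had 0.73 and did not pass (SE 0.672). Of 12 interferon response genes, Psmb8 among them, 2 rose and none fell. They were Irf7, a transcription factor of the interferon response, at 1.92 (SE 0.211, limma adjusted p = 0.00256), and the antiviral gene Ifit1 at 1.36. Irf7 was also higher in lymphedema than in sham skin, by 1.61 (adjusted p = 0.0371 from limma). That call held in 4 of 19 alternatives, the log2 fold change being 1.18 to 1.78, and was lost with local centering (1.57, adjusted p = 0.212). Irf1, an activator of immunoproteasome genes, had 0.28, and Irf8, a factor of myeloid cells, had 1.33 (adjusted p = 0.551 and 0.0646 from limma). Of 6 genes of ubiquitin and ubiquitin-like proteins, Nedd8 rose by 0.83 (SE 0.189, limma adjusted p = 0.0399). None of 24 E3 ligase and cullin genes, 11 other deubiquitinases, 9 shuttle factors and 6 other proteasome factors passed (4, 2, 0 and 0 at an unadjusted p under 0.05), with medians of 0.11, −0.07, 0.11 and 0.27. With local centering calls were added for Pdia3, a chaperone of class I loading (0.53), for Igtp and Irf9 of the interferon list (1.96 and 0.69), all higher, and for the E3 ligase Siah1a, lower (−0.51).

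Most listed markers of myeloid cells were positive in lymphedema against normal skin. Of all genes, 2.83% were called higher in this comparison, and 4.57% with local centering. Of 12 macrophage and monocyte genes, 5 rose. The median of the list on each array was 0.14 to 0.43 in lymphedema, −0.61 to 0.32 in sham and −0.73 to −0.47 in normal skin. Csf1r, the lowest of the 12, had −0.06, and −0.16 with local centering. Lyz2, the lysozyme of myeloid cells, rose by 1.95, and Adgre1, which defines tissue macrophages, had 0.78 and did not pass (adjusted p = 0.0275 and 0.155 from limma). With local centering 6 of the 12 passed, Adgre1 (0.89) and Cd68 (0.73) among them and Fcgr1 (0.57) no longer. Of 7 neutrophil genes, 4 rose, namely S100a9, Lcn2, S100a8 and Camp (4.61, 2.83, 2.83 and 0.83). The list's median was 1.39 to 1.91 in lymphedema, −0.08 to 1.09 in sham and −1.03 to −0.58 in normal skin. Cxcr2, the lowest of the 7, had −0.04, and −0.45 with local centering. With local centering 3 passed, Camp (0.45, against 0.83 with 1 median per array) being lost, and the list's median log2 fold change was 0.45, against 0.83. Ngp, 1 of the 7, then had 0 on every array but sham array 2, where its values had been 0.98 to 1.97. The running median there equaled the value itself, so local centering gives no difference to read for Ngp. Of 2 lymphocyte genes, 7 epidermal genes and 8 skeletal muscle genes, none passed. The part of these cells in the values of Psmb9, Psmb10, Ube2v1 and Usp33 was not tested.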

How the data were processed

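RNA of tail skin from 9 pools was measured on cDNA arrays with 2 colors, against RNA of whole embryos of embryonic day 17.5. The deposited table gives each feature of an array as a log2 ratio, which the authors made with GenePix and Expressionist after background subtraction and dye normalization. The log base is not stated and was read as log2. The authors' filter on reference signal and imputation are not in the table, which keeps empty cells, and its centering is not stated. Signal intensities were not used here, so whether a feature lay near background is unknown.

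The sign was turned, as described in the report, and each array was centered on its median. Features named by 1 gene and with a value on all 9 arrays were averaged per gene. Differences between states were estimated by limma 3.58.1 under R 4.3.3 (lmFit and eBayes, state as the only term, all 9 arrays) and p-values were adjusted by Benjamini-Hochberg over 8644 genes at 0.05. SAM, which the study's methods name, was run as an alternative with 20 permutations. The fits were tested on simulated data. Summaries and figures were made in Python 3.11.15 with matplotlib 3.10.9.

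Members were found by symbol. The genes named are the immunoproteasome genes and their constitutive counterparts, each called member, the 3 largest rises and falls per comparison, the mitotic E2 enzymes, and up to 3 called genes per pathway list. Ube2n, Psmd10, Ube2b, Usp36, Irf8, the remaining members named with values, and clones were picked with their values in view. The members, gene lists and rules were chosen with earlier results of these data known. Alternatives were other centerings, quantile normalization, scaling to one MAD (median absolute deviation), features with values on 2 of 3 arrays per state, arrays of the 2 groups alone, 1 clone per gene, the replicate number or the array set as a block, and each array left out. Centering along the feature number and fits of single features were added after the data were seen.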

Additional observations from a re-analysis of the deposited data

Results flagged for a closer look

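Member features outside the gene averages were flagged where all lymphedema arrays lay above the normal arrays. The rule also asked for a difference of at least 1, so clones that went the other way could not be flagged. Those flagged were 2 clones of Psmb8. Feature 25688 differed by 2.05 and feature 6733 by 1.48 on the log2 scale, between the mean of 3 lymphedema arrays and that of 2 normal arrays. Both lacked a value on 1 normal array. They entered only the fit on features with values on 2 of 3 arrays per state, where Psmb8, averaged over all 8 clones, had 0.65 (adjusted p = 0.106 from limma) in place of 0.18, and the differences of single clones were not tested.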

How the results depend on the processing

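Between lymphedema and normal skin 4 members were called (3.81%, against 3.44% of all genes). The count was 2 with features on 2 of 3 arrays per group (1.82%, against 2.16% of all genes) and without centering (1.9%, against 2.43%). It was also 2 after quantile normalization (1.9%, against 2.13%) and with the replicate block (1.9%, against 1.68%). SAM at 5% gave 15 (14.3%, against 20.8%), and arrays of the 2 groups only gave 7 (6 higher and 1 lower, 6.67%, against 9.74%). The array set block gave 0. The count ran from 0 to 6 when 1 array was left out. It was 4 after scaling to one MAD (3.81%, against 2.95%) and 3 with 1 clone per gene (2.86%, against 2.19%). With local centering it was 6 (5.71%, against 6.17%). In sham against normal and lymphedema against sham skin it was 0 under each alternative. Same-numbered arrays correlated at −0.24 to 0.28 in their deviations from the state means, and differently numbered arrays at −0.34 to 0.28. With 3 arrays per state, these values do not decide whether the numbers pair the arrays. The replicate block gave 145 genes in place of 297.

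Psmb8 turned in lymphedema against normal skin with 1 clone per gene (−0.25), and was 0.65 with features on 2 of 3 arrays per group and 0.28 with local centering. In sham against normal skin Psmb8 turned with 1 clone per gene (−0.30), without centering (−0.0002), after quantile normalization (−0.051), after scaling to one MAD (−0.034), and on leaving out an array (−0.12 to 0.11, turned without normal array 2 or sham array 1). There Psmb9 turned on leaving out sham array 3 (−0.019 to 0.51 over the arrays left out), Psmb10 with the array set block (−0.14), Psme1 with 1 clone per gene (−0.016), and Psme2 after quantile normalization (−0.0004) and without normal array 2 or sham array 1 (−0.034 to 0.22 over the arrays left out). In lymphedema against sham skin Psme2 turned with 1 clone per gene (−0.083) and without sham array 3 (−0.062 to 0.19 over the arrays left out). None of these values had passed, and the cause was not tested. With 3 pools per state and 1 array per pool, the precision is limited by their number.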
